A study of Mus musculus with 10 samples.

Results

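*Angptl1*, *Angptl2*, *Angptl4* and *Angptl7* were followed in single cells of 2 mouse skeletal lineages. They are 4 angiopoietin-like genes among the 29183 genes listed for both lineages, and were taken by name from both count tables. Each gene was read by plate, by lineage and by cell group. *Grem1*-lineage cells came from *Grem1*-TdT mice (C57BL/6), in which the tamoxifen-inducible *Grem1-creERT* switches on TdTomato. These mice received tamoxifen chow for 2 weeks from an age of 5 to 6 weeks, and cells were taken from articular cartilage (AC) and growth plate (GP) of the hind limb. *Lepr*-lineage cells came from whole hind limb bones of *Lepr*-TdT mice (C57BL/6) of matched age, in which *Lepr-cre* is constitutive, and were depleted of cells carrying CD45, Ter119 or CD31. The labels do not say which *Grem1*-lineage plates hold AC or GP cells or how many mice stand behind a plate, so p-values measure only the spread between plates. *Grem1*-lineage cells were divided by their own transcripts. Cells with more UMIs (unique molecular identifiers, each counted as 1 molecule) of *Clu*, *Cilp* and *1500015O10Rik* together than of *Cnmd* are called *Clu*-side cells here, and all others *Cnmd*-side cells.

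Angiopoietin-like proteins are secreted glycoproteins with a coiled-coil region followed by a fibrinogen-like domain. They resemble the angiopoietins in structure but do not act through the angiopoietin receptor TEK in the same way. ANGPTL4 inhibits lipoprotein lipase, the enzyme that releases fatty acids from circulating triglyceride, and its gene responds to fatty acids, hypoxia and glucocorticoids. ANGPTL2 is linked to inflammation and signals through integrins and leukocyte immunoglobulin-like receptors, ANGPTL1 restrains vessel growth, and ANGPTL7 is best known from the eye, where it bears on the extracellular matrix. Articular cartilage has no vessels, hypertrophic growth plate cartilage is invaded by them, and *Lepr*-lineage stroma surrounds the sinusoids of the marrow.

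In GENCODE M21 (GRCm38), all 4 are protein-coding genes. *Angptl1* lies at chr1:156838562-156861078 and *Angptl2* at chr2:33216069-33247717, both on the plus strand. *Angptl7* lies at chr4:148495183-148500460 and *Angptl4* at chr17:33773750-33781830, both on the minus strand. *Angptl1*, *Angptl2* and *Angptl7* each sit inside a larger protein-coding gene on the opposite strand (*Ralgps2*, *Ralgps1* and *Mtor*), with no shared exon. For *Grem1*-lineage cells the host genes were not analysed here, and in 160 *Lepr*-lineage cells they had 9, 1 and 4 UMIs. The exons of *Angptl1* also overlap *Gm37802*, a transcript of unknown coding status on the opposite strand with 3 UMIs in all kept cells. No strand setting is given for the counting, so reads of such partners cannot be told apart.

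The 250 bases before the RefSeq start (GRCm38.p6, plus strand for *Angptl1* and *Angptl2*, minus strand for *Angptl7*) are shown for the 3 members with a RefSeq promoter sequence here, since *Angptl7* and *Angptl2* went in opposite directions between the *Grem1*-lineage groups. For *Angptl1* this window lies inside the GENCODE M21 gene, which begins at chr1:156838562. The RefSeq start of *Angptl1* is thus downstream of the GENCODE gene start. Capitals mark the matches found when both strands were searched for TGACGT (the core of a cAMP response element), GTTTAC (a FOXO core), TATAAA (the promoter box), ACGTG (the core of a hypoxia response element), AGAACA (part of a glucocorticoid receptor element) and TGACTCA (an AP-1 site).
*Angptl1* promoter, chr1:156838773-156839022: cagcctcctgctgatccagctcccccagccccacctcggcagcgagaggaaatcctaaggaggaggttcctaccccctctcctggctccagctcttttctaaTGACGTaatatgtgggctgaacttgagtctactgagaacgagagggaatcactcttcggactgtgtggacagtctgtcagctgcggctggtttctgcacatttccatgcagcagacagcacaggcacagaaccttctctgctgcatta
*Angptl2* promoter, chr2:33215711-33215960: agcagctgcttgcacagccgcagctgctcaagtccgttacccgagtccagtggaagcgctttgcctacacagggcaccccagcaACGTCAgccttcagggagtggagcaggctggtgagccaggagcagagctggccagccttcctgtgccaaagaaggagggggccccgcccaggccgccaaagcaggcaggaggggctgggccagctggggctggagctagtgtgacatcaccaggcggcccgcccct
*Angptl7* promoter, chr4:148500463-148500712: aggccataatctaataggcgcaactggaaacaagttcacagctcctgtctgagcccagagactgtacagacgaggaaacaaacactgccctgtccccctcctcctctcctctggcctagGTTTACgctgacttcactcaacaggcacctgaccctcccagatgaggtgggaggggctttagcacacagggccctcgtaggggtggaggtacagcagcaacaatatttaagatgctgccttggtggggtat
*Angptl1* and *Angptl2* each held 1 match to TGACGT, from 148 and 166 bases before the RefSeq start, and *Angptl7* held 1 match to GTTTAC, from 131 bases before it. Over 27025 promoters of the same length, 6.56% held TGACGT and 6.91% held GTTTAC. The matches do not overlap each other, and they are letters in a window, not sites shown to be bound.

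Of 768 *Grem1*-lineage wells on 8 plates, 684 were kept (414 *Clu*-side and 270 *Cnmd*-side cells), as were 160 of 162 *Lepr*-lineage wells on 2 plates, with at least 350 detected genes. The median cell held 1217 UMIs of the shared genes on the *Clu* side, 2218.5 on the *Cnmd* side and 505 in the *Lepr* lineage, and plate sums ran from 51229 to 106289 UMIs. The 8 listed articular markers that took no part in the split summed to between 135183 and 204986 CPM (UMIs of a gene relative to all UMIs of the shared genes in a plate sum, on the usual CPM scale and with TMM factors) in *Clu*-side sums and to between 12759 and 36342 CPM in *Cnmd*-side sums. *Cytl1* made up most of these sums. The 6 listed marrow stroma markers summed to between 21745 and 31721 CPM in the *Lepr* lineage and to at most 520 CPM on *Grem1*-lineage plates. Of the endothelial markers, *Egfl7* was at 0 in all 3 groups, the 3 listed markers reached at most 18.1 CPM, and the 3 listed adipocyte markers at most 68.6 CPM. The 3 listed growth plate markers other than *Cnmd* went different ways. *Epyc* was at 65.2 CPM on the *Clu* side and 1084 CPM on the *Cnmd* side, *Col10a1* was at 6418 and 1292 CPM, and *Fgfr3* was at 295 and 309 CPM. In the *Lepr* lineage these 3 summed to at most 313 CPM, and *Epyc* was at 0. Osteoblast markers (4 listed) ran from 151 to 37933 CPM on the *Clu* side, 447 to 14306 CPM on the *Cnmd* side and 658 to 7056 CPM in the *Lepr* lineage. Blood markers (2 listed) reached 2648, 3321 and 4773 CPM in these groups. Their part in the results below was not tested. *Lepr* plate 1 stood apart from *Lepr* plate 2 in cartilage transcripts. *Cytl1*, the most abundant of the articular markers and present in 768 of 768 *Grem1*-lineage wells, had UMIs in 60 of 74 cells on *Lepr* plate 1 and in 0 of 86 cells on *Lepr* plate 2. *Elane*, a neutrophil protease gene, had 7 UMIs on *Lepr* plate 1 and 348 on *Lepr* plate 2. Results that set the *Lepr* lineage against *Grem1*-lineage cells are therefore given below without a *Lepr* plate where leaving it out changed a call.

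The 4 genes had their highest levels in different places. *Angptl7* was highest in *Clu*-side cells, *Angptl2* in *Cnmd*-side cells and *Angptl4* in *Lepr*-lineage cells. *Angptl1* was higher in *Clu*-side than in *Cnmd*-side cells, and the difference between its *Clu*-side and *Lepr*-lineage levels did not pass the test. Over all kept cells, *Angptl1* had 43 UMIs on the *Clu* side, 3 on the *Cnmd* side and 8 in the *Lepr* lineage, and *Angptl2* had 104, 467 and 7. *Angptl4* had 5, 23 and 37 UMIs in the same order, and *Angptl7* had 323, 16 and 5. Fewer cells with a transcript and less transcript per cell cannot be told apart in plate sums, so cells are described separately.

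**Figure D1:**
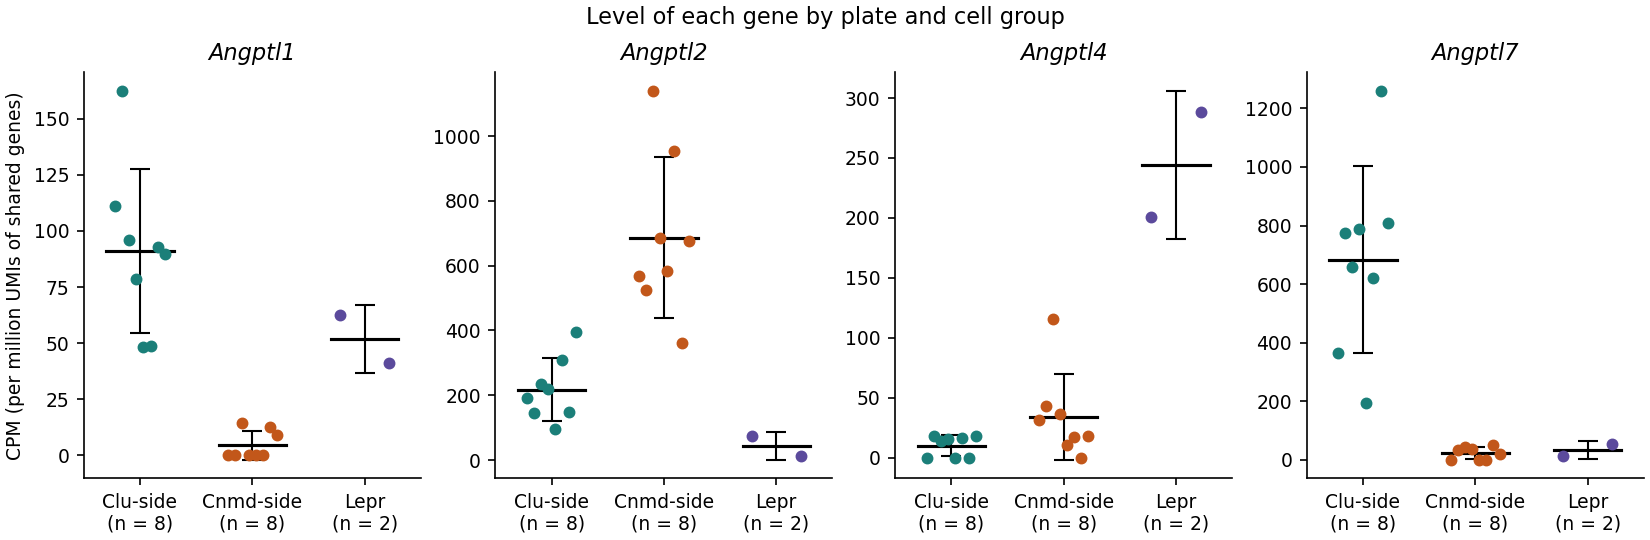
CPM of each gene in the sum of each plate, in *Clu*-side and *Cnmd*-side *Grem1*-lineage cells (8 plates each) and *Lepr*-lineage cells (2 plates). Points are plates, and bars are the mean with 1 SD. All 8 *Clu*-side points of *Angptl7* lie above 190 CPM and all other points of that gene below 60 CPM.

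*Angptl7*, whose product is a secreted matrix-associated protein, was the member that differed most between the *Grem1*-lineage groups. In *Clu*-side sums its level was lowest at 193.7 CPM on plate 6, had a median of 717.8 CPM and was highest at 1261 CPM on plate 8. In *Cnmd*-side sums it was at 0 on 3 of 8 plates, had a median of 25.2 CPM and reached 51.5 CPM. The groups did not overlap, which held for 12.6% of the 1071 genes tested between them (8.5% with the *Clu* side higher and 4.11% with it lower). The means were 683.7 ± 319 and 22.7 ± 21.04 CPM (SD, n = 8 plates each). The edgeR log2 fold change, *Clu*-side minus *Cnmd*-side, was 4.87 (SE 0.43, adjusted p = 2.1e-08), and 41% of the 1071 genes were called in either direction, 20.9% higher on the *Clu* side. The *Clu*-side level was higher on 8 of 8 plates, by 3.84 ± 0.50 on the log2 CPM scale with a prior count of 2 (two-sided exact permutation test by sign flips over plates, p = 0.0078, the lower limit for 8 plates).

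*Lepr*-lineage sums held *Angptl7* at 12.5 CPM on plate 1 and 54.9 CPM on plate 2. Plate 1 lay within the range of the *Cnmd*-side sums and plate 2 just above it. The level was lower than on the *Clu* side, with a log2 fold change of -4.31 (SE 0.77, edgeR, adjusted p = 0.00017). In that comparison 37.6% of 1983 genes were called, and 37% did not overlap. The fit behind it, also used below for the *Lepr* lineage against either side, had no plate term. It counted both *Grem1*-lineage sums of a plate as separate samples, so its p-values can be too small. *Lepr*-lineage and *Cnmd*-side sums differed by 0.50 on the log2 scale (SE 0.9995, edgeR, adjusted p = 0.73), which did not pass the test. With 5 and 16 UMIs behind these values, their order was not detectable at this depth, and without *Lepr* plate 2 the difference was -0.82.

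*Angptl7* UMIs lay in few cells. On the *Clu* side, 61 of 414 cells (14.7%, 95% Clopper-Pearson interval 11.5 to 18.5%) had at least 1 UMI, with a median of 2 and a maximum of 32 UMIs in a cell. The 23 cells with 5 UMIs or more held 264 of the 323 UMIs (81.7%), and they came from 7 of the 8 plates. On the *Cnmd* side, 15 of 270 cells (5.56%, interval 3.14 to 8.998%) had a UMI, of which 14 had 1 and the other had 2, although these cells were deeper. In the *Lepr* lineage the share was 2.5% (4 of 160 cells, interval 0.69 to 6.28%). Thus the cells with many *Angptl7* molecules were found on the *Clu* side, and the variance of UMIs per cell there was 13.1 times the mean.

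**Figure D2:**
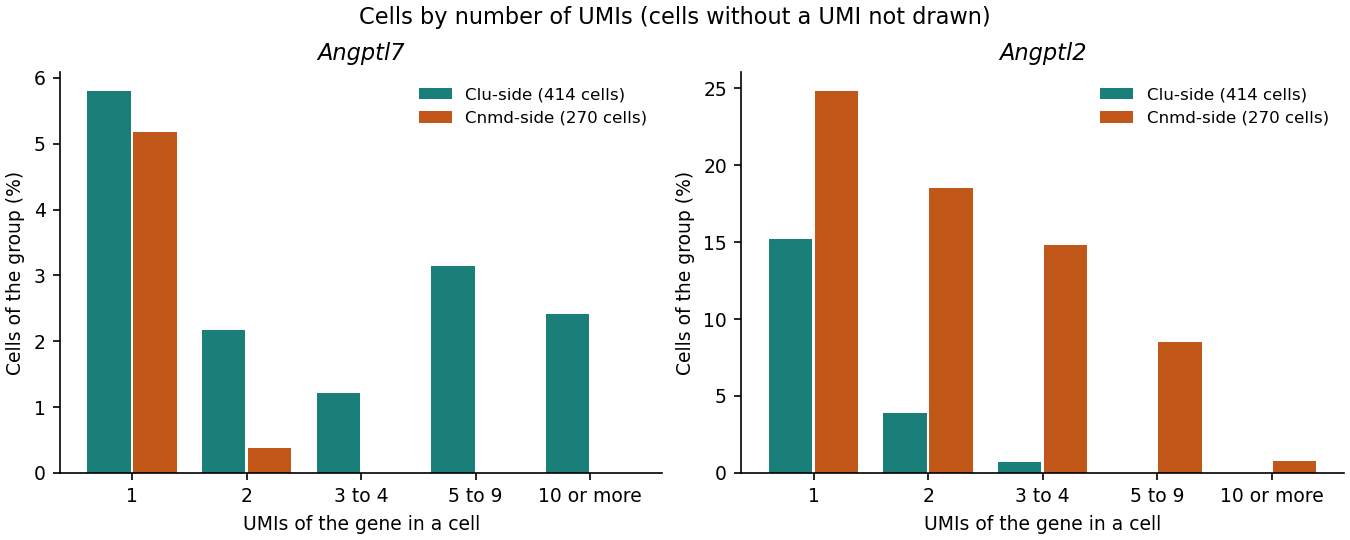
Percentage of cells with 1, 2, 3 to 4, 5 to 9 and 10 or more UMIs of *Angptl7* (left) and *Angptl2* (right), for *Clu*-side (414) and *Cnmd*-side (270) cells. *Angptl7* had 5 UMIs or more in 23 *Clu*-side cells and in 0 *Cnmd*-side cells, and *Angptl2* in 0 *Clu*-side and 25 *Cnmd*-side cells.

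The *Clu*-side cells with *Angptl7* were then described beside those without it. This division was made on a measured value, and the genes shown were picked with their values known, so no test is given. The 61 cells with *Angptl7* had a median of 1389 UMIs and the 353 without it 1188. *1500015O10Rik* (*Ecrg4*), one of the genes that define the *Clu* side, was at 21742 CPM in cells with *Angptl7* and at 15895 CPM in cells without it, and was higher on 8 of 8 plates. Of the other genes that define this side, *Clu* was higher on 4 plates and lower on 4, and *Cilp* was higher on 5 and lower on 3. Some plates had few cells with *Angptl7*, such as 2 on plate 1. *Col10a1*, the collagen of hypertrophic cartilage, was at 3116 and 5828 CPM and was lower in cells with *Angptl7* on 8 of 8 plates, although more of these cells had a *Col10a1* UMI (62.3% against 56.7%). *Crispld1* was at 805 and 1394 CPM and was lower on 7 of 8 plates. *Cilp2* was at 1284 and 1291 CPM, higher on 4 plates and lower on 4.

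Over the 18 plate sums, the 3 tested genes with levels most like *Angptl7* were *Creb5* (Pearson r of log2 CPM 0.97), *Fhl1* (0.95) and *Gas1* (0.92). CREB5 is a transcription factor known from superficial articular cartilage, and GAS1 is a co-receptor for hedgehog proteins. These correlations rest mostly on the 3 groups, since all sums of a group share them, and are a description. Within *Clu*-side cells, *Creb5* was not higher beside *Angptl7*. It had UMIs in 29.5% of cells with *Angptl7* and in 32.3% of those without it, at 280.1 and 414.5 CPM.

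*Clu*-side cells with and without a *Col10a1* UMI were compared as plate sums, 8 with and 7 without, since 1 plate had fewer than 10 cells without it. *Angptl7* had 196 UMIs in 38 of 238 cells with *Col10a1* and 127 UMIs in 23 of 176 cells without it. The log2 fold change was -0.02 (SE 0.49, edgeR, adjusted p = 0.98), and *Angptl7* was the only member past the low-count filter. Of 361 genes, 0 were called by edgeR (0%), 28 had an unadjusted p under 0.05, and 5 were called by DESeq2 and also 5 with the plate as a block. On plates 1, 2 and 4 the *Angptl7* difference was -1.19 and on plates 5 to 9 it was 0.50, neither past the test. The sign of this difference thus changed with the plates used.

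*Angptl2*, which encodes a secreted ligand linked to inflammation, was higher in *Cnmd*-side than in *Clu*-side cells. In *Cnmd*-side sums it was lowest at 360.7 CPM, had a median of 630.1 CPM and was highest at 1140 CPM. In *Clu*-side sums these values were 96.8, 205.3 and 395.5 CPM, so the highest *Clu*-side plate lay above the lowest *Cnmd*-side plate and the groups overlapped. The log2 fold change, *Clu*-side minus *Cnmd*-side, was -1.55 (SE 0.26, edgeR, adjusted p = 6.3e-05), with 20.1% of genes called lower on the *Clu* side. Within plates there was no exception, as the *Clu*-side level was lower on 8 of 8 plates by 1.51 ± 0.52 on the log2 CPM scale (a mean difference of -1.51, p = 0.0078 in the same exact permutation test). With the plate as a block, which the pairing of these sums allows, the fold change was -1.58.

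Unlike *Angptl7*, *Angptl2* was spread over many cells. On the *Cnmd* side, 182 of 270 cells (67.4%, interval 61.5 to 73.0%) had a UMI, with a median of 2 in these cells and a maximum of 16. On the *Clu* side, 82 of 414 cells (19.8%, interval 16.1 to 23.98%) had a UMI, and none had more than 3. The *Cnmd*-side cells were deeper, so each cell was thinned to 529 UMIs, which left 269 and 413 cells. The shares were then 30.1% and 9.44%, in the same order. The 10 highest *Cnmd*-side cells held 17.8% of the *Angptl2* UMIs of that group, where the 10 highest *Clu*-side cells held 56.3% of the *Angptl7* UMIs.

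*Cnmd*-side cells with *Angptl2* (182 cells, median 2345 UMIs) were described beside those without it (88 cells, median 1797 UMIs), again with no test. *Fgfr3*, a receptor that restrains growth plate chondrocytes, was at 384.0 CPM in cells with *Angptl2* and at 173.5 CPM in cells without it, and was higher on 8 of 8 plates. *Cnmd*, a gene of the split, was at 27261 and 21462 CPM and also higher on 8 of 8 plates. *Col10a1* was at 519.1 and 4047 CPM, lower in cells with *Angptl2* on 6 of 8 plates. General cartilage genes were higher as well. *Col2a1* was at 73226 and 58575 CPM and *Acan* at 6596 and 5335 CPM, each higher on 7 plates and lower on 1. *Epyc* was at 1275 and 828 CPM, higher on 5 plates and lower on 3. The difference was thus not particular to *Fgfr3*. Over the 18 sums, the tested genes most like *Angptl2* were *Ckap4* (r = 0.90), *Fam221b* (0.90) and *Col9a1* (0.89), the last a chain of cartilage collagen IX.

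In the *Lepr* lineage, *Angptl2* was at 75.2 CPM on plate 1 and at 13.7 CPM on plate 2, below every *Grem1*-lineage sum. It was lower than on the *Clu* side by a log2 fold change of -2.23 (SE 0.61, edgeR, adjusted p = 0.0066) and lower than on the *Cnmd* side by -3.86 (SE 0.58, edgeR, adjusted p = 2.2e-05). In the latter comparison 34.3% of 1983 genes were called and 38.5% did not overlap. All 6 *Angptl2* UMIs of *Lepr* plate 1 were in cells that also had *Cytl1*, as did 60 of the 74 cells of that plate. So few UMIs cannot show whether the 2 transcripts go together, and the part of cartilage transcripts in the *Lepr*-lineage level was not tested. Without *Lepr* plate 1, the difference from the *Clu* side was -3.92 (edgeR, adjusted p = 0.0086), and without *Lepr* plate 2 it was -1.58 (adjusted p = 0.11), where the call was lost. The difference from the *Cnmd* side passed the test without either plate, at -5.53 and -3.19.

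*Angptl1*, which encodes an inhibitor of vessel growth, had few UMIs and did not pass the filter on low counts. In *Clu*-side sums it was lowest at 48.4 CPM, had a median of 91.3 CPM and was highest at 162.5 CPM. In *Cnmd*-side sums it was at 0 on 5 of 8 plates and reached 14.4 CPM, so the measured values did not overlap. The lowest *Clu*-side values, 48.4 CPM on plate 6 and 48.9 CPM on plate 7, came from 2 and 3 UMIs. By the limit of 3 counts, the *Cnmd*-side 0 on plate 7 allows up to 52.0 CPM. The order of the groups was thus not resolved on plate 7, nor was the lack of overlap. The share of genes without overlap was taken only over the 1071 genes past the filter (12.6%), which leaves *Angptl1* out. The measured *Clu*-side level was higher on 8 of 8 plates by 1.89 ± 0.48 on the log2 CPM scale (p = 0.0078 in the exact permutation test, its lower limit). In the edgeR fit without the filter the log2 fold change was 3.85 (SE 0.64, adjusted p = 1.6e-07). That fit called 704 of 12510 genes, 382 of them higher on the *Clu* side. From 43 and 3 UMIs, the ratio of the pooled levels was 17.7 (95% counting interval 5.65 to 89.0). On *Lepr* plates 1 and 2 it was at 62.7 and 41.1 CPM, from 5 and 3 UMIs. The plate 1 value lay within the *Clu*-side range and the plate 2 value just below it. Without the filter, the *Lepr* lineage differed from the *Clu* side by -0.88 (SE 0.72, edgeR, adjusted p = 0.54) and from the *Cnmd* side by 2.98 (SE 0.90, adjusted p = 0.018). The latter call was lost in the same fit without *Lepr* plate 1 (2.57, adjusted p = 0.24) and without *Lepr* plate 2 (3.22, adjusted p = 0.065). In *Clu*-side cells, 33 of 414 (7.97%, interval 5.55 to 11.01%) had a UMI, with at most 4 in a cell. On the *Cnmd* side 3 of 270 cells did (1.11%, interval 0.23 to 3.21%).

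*Angptl4*, the lipase inhibitor, was highest in the *Lepr* lineage, at 200.5 CPM on plate 1 and 288.0 CPM on plate 2. In *Cnmd*-side sums it was at 0 on 1 plate, had a median of 24.9 CPM and reached 115.4 CPM on plate 4. In *Clu*-side sums it was at 0 on 3 of 8 plates and never above 18.1 CPM. Thus both *Lepr* plates lay above every *Grem1*-lineage sum. Of 1983 genes, 18.8% lay without overlap above the *Clu* side in the *Lepr* lineage and 19.5% above the *Cnmd* side. Called higher in the *Lepr* lineage were 18.7% and 16.7%. The log2 fold change of the *Lepr* lineage was 4.31 over the *Clu* side (SE 0.71, edgeR, adjusted p = 7.5e-05) and 2.81 over the *Cnmd* side (SE 0.61, adjusted p = 0.00098). The latter call was lost without *Lepr* plate 2 (2.48, adjusted p = 0.055). In the *Lepr* lineage 27 of 160 cells had a UMI (16.9%, interval 11.4 to 23.6%), against 6.30% on the *Cnmd* side (interval 3.71 to 9.89%) and 1.21% on the *Clu* side (interval 0.39 to 2.80%), where cells were deeper.

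Between the *Grem1*-lineage groups *Angptl4* did not pass the filter. It was lower on the *Clu* side on 6 plates, higher on 1 and equal on 1 (mean log2 CPM difference -0.56 ± 0.62, p = 0.047 in the exact permutation test), and -1.61 in the fit without the filter (SE 0.72, edgeR, adjusted p = 0.21). In the exact permutation test this result was lost without plate 2 (p = 0.094), plate 4 (p = 0.062), plate 5 (p = 0.094) or plate 6 (p = 0.094), and where cells within 5 UMIs of the split were left out (p = 0.16). It was also lost in cells of at least 800 UMIs (-0.44, p = 0.16 in the exact permutation test). The mean difference was -1.18 on plates 1, 2 and 4 and -0.21 on plates 5 to 9. On plate 4, 8 UMIs came from 2 cells. The tested genes most like *Angptl4* over the 18 sums were *Gdpd2* (r = 0.85), *Cnn2* (0.84) and *Ccl2* (0.83).

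The partners of ANGPTL4 could be read in the *Lepr* lineage alone, on the scale of all 50508 genes listed for it. *Lpl*, lipoprotein lipase itself, was at 982.7 CPM on plate 1 and 1430 CPM on plate 2 and had UMIs in 124 of 160 cells (77.5%). On the same scale *Angptl4* was at 100.8 and 144.3 CPM. Of the 27 cells with *Angptl4*, 24 also had *Lpl* (88.9%), as had 100 of the 133 without it (75.2%). The cells with *Angptl4* were deeper, with a median of 1590 UMIs against 1172, and this was not adjusted for. *Gpihbp1*, which anchors the lipase on capillaries, and *Lipg*, endothelial lipase, had 0 UMIs, which allows a UMI in up to 1.88% of cells at this depth (3 counts of 160 cells) and sets no limit on cells that express them. *Lmf1*, needed for lipase folding, had 7 UMIs, *Vldlr* had 1 and *Cd36* had 1. Thus *Lpl* was detected beside *Angptl4*, while *Gpihbp1* was not detected. These cells had been depleted of cells carrying CD31, an endothelial marker, and the cause of the absence was not tested.

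**Figure D3:**
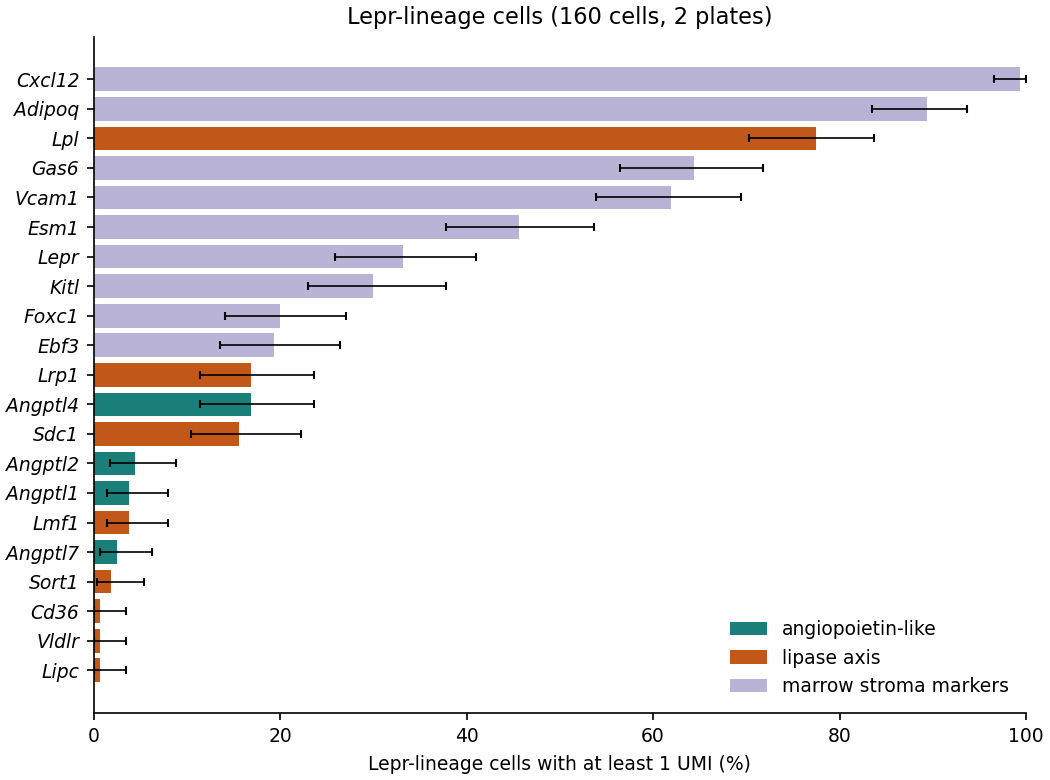
Percentage of the 160 *Lepr*-lineage cells with at least 1 UMI of each angiopoietin-like gene, lipase axis gene and marrow stroma marker that was detected, with 95% Clopper-Pearson intervals. *Lpl* was detected in 77.5% of cells and *Angptl4* in 16.9%.

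Among PPAR and fatty acid response genes, which include targets shared with *Angptl4*, 5 of 13 were listed for both lineages. Most of them did not pass the filter on low counts in any comparison. *Fabp4*, a fatty acid carrier, had 5 UMIs in the *Lepr* lineage, 6 on the *Cnmd* side and 0 on the *Clu* side. *Pparg*, *Plin2* and *Pdk4* had 17, 23 and 2 UMIs in the *Lepr* lineage.

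Of 13 hypoxia and glucocorticoid response genes, 6 were listed and 4 tested. Between the *Grem1*-lineage groups, 2 were higher on the *Clu* side and 0 lower, with a median log2 fold change of 0.73 beside 0.01 over all genes. Over all genes tested there, 20.9% were called higher on the *Clu* side and 20.1% lower, so 4 genes are too few to set the list apart. *Epas1*, the hypoxia-inducible factor HIF-2 alpha, was at 227.9 ± 29.3 CPM on the *Clu* side and 27.8 ± 20.2 CPM on the *Cnmd* side (SD, n = 8 each, log2 fold change 2.93, SE 0.30, edgeR, adjusted p = 1.5e-07). *Bnip3*, a mitophagy receptor, rose by 1.12 (SE 0.19, edgeR, adjusted p = 9.8e-05). Against the *Cnmd* side, *Epas1* was higher in the *Lepr* lineage by 3.66 (SE 0.38, edgeR, adjusted p = 1.8e-07), while *Ddit4* was lower by a log2 fold change of -2.07 (SE 0.57, adjusted p = 0.0069). The *Ddit4* call was lost without *Lepr* plate 2 (-1.67, edgeR, adjusted p = 0.11). Of the 11 alternatives other than leaving out a plate, only 9 kept this call. *Bnip3* was also lower there (edgeR, adjusted p = 5.9e-05), from 2 and 127 UMIs, with a ratio of the pooled levels of 0.0827 (95% counting interval 0.0099 to 0.305). *Ddit4* restrains mTOR signalling. *Fkbp5*, a glucocorticoid response gene, did not pass the test between lineages (-0.98, edgeR, adjusted p = 0.057), but did without *Lepr* plate 1 (-1.61, adjusted p = 0.043).

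The angiopoietins and further angiopoietin-like genes were sparse. *Angptl8* had 0 UMIs in all 3 groups, which by the same limit allows a UMI in up to 0.72% of *Clu*-side, 1.11% of *Cnmd*-side and 1.88% of *Lepr*-lineage cells. *Angptl6* had 2 UMIs on the *Clu* side, 2 on the *Cnmd* side and 1 in the *Lepr* lineage. *Angpt1*, the stabilising ligand of vessels, had 14 UMIs in 10 *Lepr*-lineage cells and 0 in *Grem1*-lineage cells. *Angpt2*, its antagonist, had 12 UMIs in the *Lepr* lineage, 2 on the *Clu* side and 3 on the *Cnmd* side. *Angpt4* had 5 UMIs in the *Lepr* lineage only. None of these genes passed the filter. Receptors were read in the *Lepr* lineage alone, where *Itgb1* had 62 UMIs and the angiopoietin receptor *Tek* had 2. The leukocyte immunoglobulin-like receptor genes *Pirb* and *Lilrb4a* had 30 and 60 UMIs in 20 and 19 cells. On the scale of all listed genes, *Pirb* was at 119.7 and 75.6 CPM on plates 1 and 2, and *Lilrb4a* at 327.6 and 55.0 CPM. Blood transcripts were also found on these plates, and their part in these counts was not tested.

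Of 16 secreted regulators of vessel growth and their receptors, 3 were listed for both lineages. *Esm1*, a proteoglycan of endothelial cells and marrow stroma, had 116 UMIs in the *Lepr* lineage, at 740.6 and 777.1 CPM, and 0 in *Grem1*-lineage cells (edgeR, adjusted p = 2.3e-06 between lineages). Against the limit of 3 counts over all *Grem1*-lineage cells, it was at least 368-fold higher. *Fgf2*, a growth factor, had 1 UMI in the *Lepr* lineage, 70 on the *Clu* side and 15 on the *Cnmd* side. It was lower in the *Lepr* lineage than on the *Clu* side (edgeR, adjusted p = 0.00093), with a ratio of the pooled levels of 0.0609 (95% counting interval 0.00152 to 0.35). *Flt1*, a VEGF receptor, did not pass the filter.

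When all *Grem1*-lineage cells of a plate were summed, the *Lepr* lineage was lower in *Angptl2* and *Angptl7* and higher in *Angptl4*. These comparisons use the same *Lepr* plates as those above. The lineages also differed in tissue, sorting and plates, here and above, so lineage cannot be told apart from these. *Angptl2* was at a lowest level of 291.1, a median of 499.0 and a highest level of 708.5 CPM on *Grem1*-lineage plates, against 72.5 and 12.8 CPM on the *Lepr* plates. The log2 fold change was -3.54 (SE 0.52, edgeR, adjusted p = 0.00012). *Angptl4* was at 0, 19.6 and 66.4 CPM against 193.4 and 268.1 CPM, with a log2 fold change of 3.15 (SE 0.57, edgeR, adjusted p = 0.00065). *Angptl7* was at 63.4, 330.5 and 582.3 CPM against 12.1 and 51.1 CPM, with a log2 fold change of -3.27 (SE 0.82, edgeR, adjusted p = 0.0066). The lineages did not overlap in any of these 3 genes, as held for 38.3% of 2944 genes (17.6% with the *Lepr* lineage higher and 20.7% with it lower), and 28.9% were called. The *Angptl7* call was lost without *Lepr* plate 1 (-2.67, adjusted p = 0.076). An exact two-sided permutation test over the 10 plates on log2(CPM + 1) gave p = 0.022 for *Angptl2* and for *Angptl7*, the smallest p that this design allows, and p = 0.044 for *Angptl4*. *Angptl1*, below the filter, was at 41.2 ± 16.6 CPM in the *Grem1* lineage and 49.4 ± 15.6 CPM in the *Lepr* lineage (SD, n = 8 and 2, exact permutation test, p = 0.53).

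**Figure D4:**
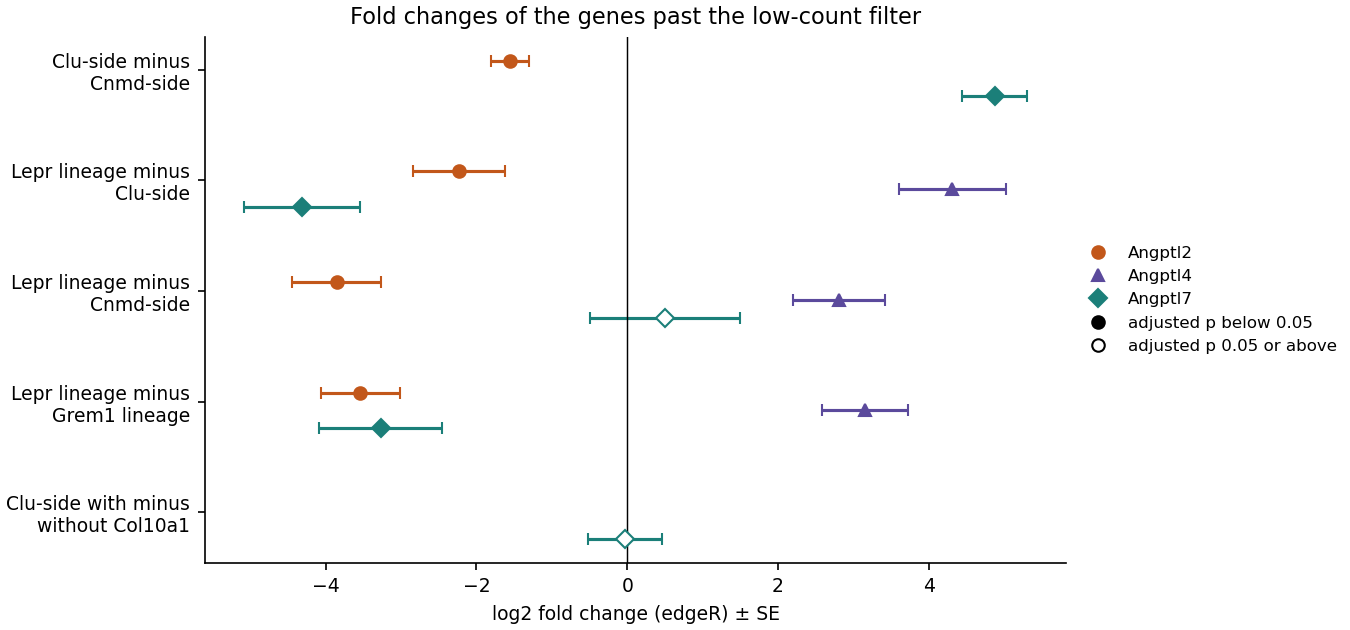
Log2 fold changes with approximate standard errors from edgeR for the members that passed the filter, by comparison. Filled symbols have an adjusted p below 0.05. *Angptl7* lies at 4.87 and *Angptl2* at -1.55 for *Clu*-side minus *Cnmd*-side, and *Angptl4* lies above 2.8 in each comparison of the *Lepr* lineage.

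The scaling of the sums moved the genome-wide balance of calls but not the direction of these members. After TMM, 224 genes were higher and 215 lower on the *Clu* side, and without TMM factors 130 were higher and 393 lower, with a shift of the median of all genes to -0.34 on the log2 scale. Between lineages 358 were higher and 493 lower in the *Lepr* lineage, and without TMM 681 and 315, with a median of 0.35. Against the *Clu* side the numbers were 371 and 374, and without TMM 639 and 243. Without TMM, *Angptl7* and *Angptl2* differed between the *Grem1*-lineage groups by 4.53 and -1.92.

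**Figure D5:**
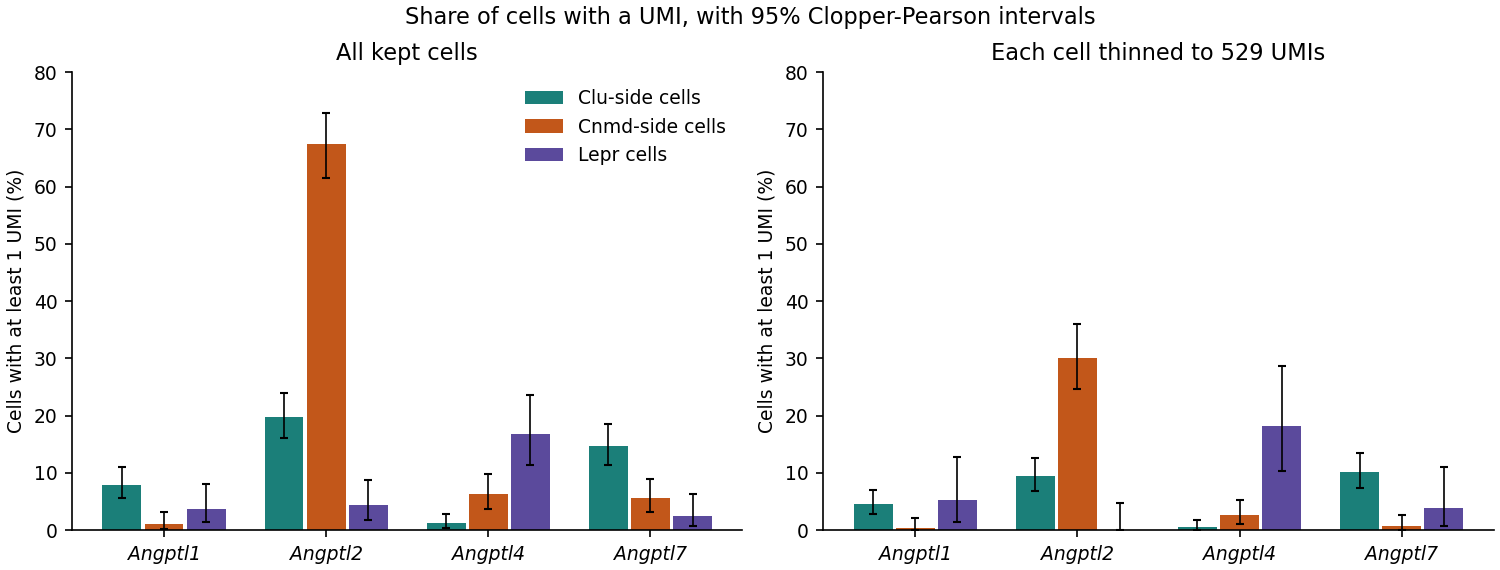
Percentage of cells with at least 1 UMI of each gene in *Clu*-side, *Cnmd*-side and *Lepr*-lineage cells, for all kept cells (left) and after thinning each cell to 529 UMIs (right), with 95% Clopper-Pearson intervals. The group with the highest share is the same before and after thinning for *Angptl2*, *Angptl4* and *Angptl7*.

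Shares of cells with a UMI were compared after thinning, since the groups differed in depth. After thinning, 10.2% of *Clu*-side cells had *Angptl7*, against 0.74% on the *Cnmd* side and 3.90% in the *Lepr* lineage. *Angptl4* was found in 18.2% of thinned *Lepr*-lineage cells, 2.60% of *Cnmd*-side and 0.48% of *Clu*-side cells. *Angptl2* was found in 0 of 77 thinned *Lepr*-lineage cells (interval 0 to 4.68%). For *Angptl1* the thinned shares were 4.60% on the *Clu* side and 5.19% in the *Lepr* lineage, and their intervals overlapped. Only 77 of 160 *Lepr*-lineage cells were deep enough to be thinned. Intervals cover counting error only.

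Few cells held more than 1 member. At least 1 of the 4 genes was detected in 156 of 414 *Clu*-side cells (37.7%), 192 of 270 *Cnmd*-side cells (71.1%) and 41 of 160 *Lepr*-lineage cells (25.6%). Exactly 2 were detected in 25, 25 and 3 cells, and no cell held 3. On the *Clu* side, *Angptl2* and *Angptl7* were found together in 10 cells, where the product of their shares gives 12.1, and *Angptl1* and *Angptl7* in 4, where it gives 4.86. *Angptl1* and *Angptl2* were found together in 10 *Clu*-side cells, where the product gives 6.54. In the *Lepr* lineage, *Angptl2* and *Angptl7* shared 2 cells, where it gives 0.175. On the *Cnmd* side, *Angptl2* and *Angptl4* shared 12 cells, where the product gives 11.5. These counts are a description, since cells of a plate are not replicates.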

How the data were processed

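Cells were sorted singly into 96-well plates and libraries were made with Nextera XT. The deposited values are UMI counts, made by the authors as whole numbers without normalisation. The submitters' processing notes name UMI-tools, STAR, featureCounts, SAMtools, Seurat and mm10, without versions or roles. The *Grem1*-lineage table was used for the 29183 complete gene rows up to *Gm5763*, in which *Lepr*-lineage cells have 40.9% of their UMIs, and 1 incomplete row was left out. Columns were matched to plates by the plate number in their names. Gene symbols were matched to GENCODE M21, where 97.2% had a match.

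Kept cells had 350 detected genes or more, and no doublet caller was run. UMIs were summed per plate and group (at least 10 cells). Sums were tested with edgeR 4.0.16 in R 4.3.3 (TMM, filterByExpr, quasi-likelihood test, Benjamini-Hochberg adjustment over all genes at 0.05). The genes of each split were left out of its tests. The approximate SE came from dividing a log2 fold change by the square root of its F statistic. CPM in the text are those of the fit of 18 sums, except between whole lineages, for *Epas1* between the *Grem1*-lineage groups and where the scale of all listed genes is named. CPM of cells with and without a member are pooled over cells without TMM. Exact intervals came from SciPy 1.17.1, and the exact permutation tests listed all sign flips or splits of plates with NumPy 2.4.6. Methods were tested on simulated data. Of log2 changes of 1, 84% were recovered between the *Grem1*-lineage groups and 75.9% for *Col10a1*. Between lineages it was 7.45%, and for the *Lepr* lineage against the *Clu* and *Cnmd* sides 16.8% and 21.5%. For log2 changes of 2 these shares were 100%, 100%, 58.6%, 65.5% and 73.3%. False calls were 1.69% to 6.74% of calls. A *Lepr*-lineage difference that did not pass the test can thus be real. Alternatives were DESeq2 1.42.0, its size factors, no TMM, no filter, other cell minimums and splits, plate as a block, subsets of plates and each plate left out. Cells of at least 800 UMIs, alternatives for list genes, and *Angptl1* without the filter and a *Lepr* plate were added after the data were seen.

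*Clu*-side and *Cnmd*-side sums of a plate deviated together (mean r across genes 0.28, above 0.1 on 8 of 8 plates), as did sums with and without *Col10a1* (7 of 7 plates), so both are paired by plate. The members, lists and tests were chosen with earlier results of these data known. Besides the 4 members, genes named are list members past the test with a mean of at least 50 CPM (at most 6 per list and comparison), genes overlapping a member, and the 3 genes most like each member. Others were named after their values were seen. A few results are not reported here.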

Additional observations from a re-analysis of the deposited data

Results flagged for a closer look

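*Angptl4* on *Grem1* plate 4 stood apart from the other *Cnmd*-side sums at 115.4 CPM. Its gap to the next plate was 0.629 of the range of the 8 plates, above the limit of 0.526 of Dixon's test. A total of 8 groups were tested, and for normally distributed values chance alone flags about 1 in 20 groups. Sums of few UMIs need not follow that distribution, so the rate here is not known. The value came from 8 UMIs in 2 cells.

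The *Grem1*-lineage wells left out for too few detected genes (84 wells, median 501.5 UMIs) also held UMIs of the members, above the 3 counts that a count of 0 allows. *Angptl7* had 18 UMIs in 6 wells on 3 plates, with up to 9 in a well. *Angptl2* had 13 UMIs in 12 wells, *Angptl1* had 5 UMIs in 5 wells, and *Angptl4* had 0.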

How the results depend on the processing

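Between *Clu*-side and *Cnmd*-side cells, *Angptl7* (4.53 to 5.04) and *Angptl2* (-1.92 to -1.39) kept direction and call under all 12 alternatives and without each plate (4.74 to 5.01 and -1.74 to -1.45). For the members, leaving out 1 plate moved the calls lost in the *Lepr*-lineage comparisons, where 2 plates set the precision. There the leave-one-out ranges were -4.62 to -2.67 for *Angptl7* between lineages, -3.92 to -1.58 for *Angptl2* against the *Clu* side, 2.48 to 3.27 for *Angptl4* and -0.82 to 1.14 for *Angptl7* against the *Cnmd* side. The last was also reversed in cells of at least 800 UMIs (-0.013), and the cause was not tested. *Angptl1* between lineages, 0.03 without the filter, was -0.34 without *Lepr* plate 1 as well. *Angptl7* with and without *Col10a1* ranged from -0.32 to 0.17 without each plate and was reversed without the filter (0.10), with no gene minimum (0.20), with sums of at least 5 cells (0.11) and on plates 5 to 9 (0.50).

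Counts of genes called without each plate ranged from 529 to 849 between lineages, 488 to 733 against the *Clu* side, 448 to 667 against the *Cnmd* side and 0 to 4 for *Col10a1*, the lowest of the first 3 without *Lepr* plate 2. On plates 1 and 2 of each lineage they were 436, 387 and 419 with the replicate block and 451, 399 and 422 without it. These same-numbered plates share only a number (r = 0.092 and 0.022). Between *Grem1*-lineage groups 704 genes were called without the filter, 235 on plates 1, 2 and 4 (fewer samples) and 498 with the replicate block, which changed no call of a member. For *Col10a1*, the count was 5 with DESeq2, 5 with the replicate block, 5 with no gene minimum, 3 without TMM, 3 with sums of at least 5 cells, 3 on plates 5 to 9 and 36 without the filter. Thinning moved the shares of *Angptl2* to 9.44% and 30.1%. The share of *Angptl4* in the *Lepr* lineage was then 18.2%, over 77 cells, since 83 shallower cells were left out. Removing UMIs cannot raise a share, so this rise came with the change of cells.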
